A study of Mus musculus with 16 samples.

Results

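The promoter regions of protein-coding genes described here are stretches of open chromatin at gene starts in mouse blood progenitors, measured by ATAC-seq. This assay uses the Tn5 transposase to cut and tag DNA that is not shielded by nucleosomes. Peaks that overlapped by 1 bp or more in any of 8 peak lists were merged into union regions on chromosomes 1 to 19. A union region was counted as a promoter region when it was under 2000 bp wide and overlapped the 500 bp on either side of a listed start of a protein-coding gene. This gave 11454 promoter regions of 118981 union regions, or 9.63%, at 11043 of the 16457 genes with a listed start. A further 355 regions at gene starts were 2000 bp or wider and were left out. Starts were listed for 16457 of 20665 protein-coding genes on these chromosomes. The other 4208 genes, which include every gene of chromosome 18, were not analysed here.

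All samples were hematopoietic progenitors, labelled MPP (multipotent progenitors), from mice 21 days old. Each of the 8 lists was made from 2 pooled libraries of 1 genotype. Set 1 held Flt3-ITD/Runx1-het, Flt3-ITD, Runx1-het and wild type, and set 2 held NUP98-HOXD13/Flt3-ITD, NUP98-HOXD13, Flt3-ITD and wild type. The study asked how Flt3-ITD and cooperating mutations act on the identity of these progenitors. Flt3-ITD is an internal duplication that keeps the FLT3 cytokine receptor active. Runx1-het marks heterozygosity for Runx1, a transcription factor of early blood cells, and NUP98-HOXD13 is a leukaemia fusion of a nuclear pore protein with a homeobox factor. The labels give neither the driver of the NUP98-HOXD13 transgene nor how the Runx1 allele was made. They do not say what separates the 2 sets, so a difference between sets cannot be told apart from one of handling. With 1 pooled list a genotype, no test between genotypes was possible and no p-value is given. Each list pools many cells, so more cells with an open promoter and a wider opening per cell cannot be told apart.

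A promoter is the stretch of DNA at a gene's start where the transcription machinery assembles. Promoters rich in CpG dinucleotides serve mostly widely used genes and stay free of nucleosomes in many cell types, while CpG-poor promoters, often with a TATA box, serve many tissue-restricted genes. In blood progenitors, an open promoter can mark a gene that is in use or one that is kept ready for a later lineage choice.

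The sequences of 7 promoters on which the results turn are shown first, from RefSeq on build GRCm38.p6, each running from 250 bases before to 50 bases after the gene's start on the gene's own strand. Capitals mark matches to 12 short letter patterns of known promoter elements, searched on both strands and listed with the sequence results. Cggbp1, which encodes a CGG repeat binding protein, had the highest rank by −log10 p in its weakest list of all promoter regions, and its window (chr16:64851751-64852050, plus strand) holds GC box, ETS and CCAAT letters. Socs3, a feedback inhibitor of cytokine signalling, lies on the minus strand (chr11:117969317-117969616) and holds STAT and GC box letters. Serpina3g, a serine protease inhibitor of blood cells (chr12:104235897-104236196, plus strand), holds RUNX, STAT and GATA letters. Crisp1 (chr17:40319158-40319457, minus strand) and Crisp3 (chr17:40242239-40242538, minus strand) encode cysteine-rich secretory proteins, and both hold TATA letters. Vav1, which encodes a guanine nucleotide exchange factor of blood cells, has a GC box in its window (chr17:57278850-57279149, plus strand). Hoxd4, a homeobox gene (chr2:74721728-74722027, plus strand), holds STAT and TATA letters.
Cggbp1: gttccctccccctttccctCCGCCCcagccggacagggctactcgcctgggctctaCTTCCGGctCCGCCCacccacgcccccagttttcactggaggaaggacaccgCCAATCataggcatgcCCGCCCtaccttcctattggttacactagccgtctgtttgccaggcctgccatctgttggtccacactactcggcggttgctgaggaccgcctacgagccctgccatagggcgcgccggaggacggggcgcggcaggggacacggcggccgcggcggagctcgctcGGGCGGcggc
Socs3: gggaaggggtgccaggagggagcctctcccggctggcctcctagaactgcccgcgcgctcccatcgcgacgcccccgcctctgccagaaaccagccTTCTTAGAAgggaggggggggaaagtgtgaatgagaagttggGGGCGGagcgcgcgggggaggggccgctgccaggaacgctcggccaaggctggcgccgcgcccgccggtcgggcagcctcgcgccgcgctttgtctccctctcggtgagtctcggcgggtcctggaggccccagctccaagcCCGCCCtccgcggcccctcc
Serpina3g: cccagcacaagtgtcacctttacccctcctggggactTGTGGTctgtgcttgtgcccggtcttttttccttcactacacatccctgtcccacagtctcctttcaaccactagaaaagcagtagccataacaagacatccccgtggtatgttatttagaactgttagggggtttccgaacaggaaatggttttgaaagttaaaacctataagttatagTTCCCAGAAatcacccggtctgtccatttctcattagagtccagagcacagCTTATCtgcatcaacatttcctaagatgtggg
Crisp1: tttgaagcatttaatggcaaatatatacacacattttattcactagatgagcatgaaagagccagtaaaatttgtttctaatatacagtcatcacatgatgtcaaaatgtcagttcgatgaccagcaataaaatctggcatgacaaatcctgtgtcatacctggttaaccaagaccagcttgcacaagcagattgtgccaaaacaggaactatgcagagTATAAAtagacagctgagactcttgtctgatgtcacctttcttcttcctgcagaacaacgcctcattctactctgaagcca
Crisp3: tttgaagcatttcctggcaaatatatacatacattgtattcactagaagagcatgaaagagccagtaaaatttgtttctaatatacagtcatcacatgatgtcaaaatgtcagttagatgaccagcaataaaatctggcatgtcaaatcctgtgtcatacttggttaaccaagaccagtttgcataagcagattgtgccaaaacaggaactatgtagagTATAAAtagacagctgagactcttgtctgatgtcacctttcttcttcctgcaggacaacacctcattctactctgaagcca
Vav1: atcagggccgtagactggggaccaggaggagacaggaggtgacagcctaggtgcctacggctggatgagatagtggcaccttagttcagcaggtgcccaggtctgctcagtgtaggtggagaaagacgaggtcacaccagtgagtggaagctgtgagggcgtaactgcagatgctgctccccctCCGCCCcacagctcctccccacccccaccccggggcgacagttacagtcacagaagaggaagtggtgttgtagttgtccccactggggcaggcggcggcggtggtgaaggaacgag
Hoxd4: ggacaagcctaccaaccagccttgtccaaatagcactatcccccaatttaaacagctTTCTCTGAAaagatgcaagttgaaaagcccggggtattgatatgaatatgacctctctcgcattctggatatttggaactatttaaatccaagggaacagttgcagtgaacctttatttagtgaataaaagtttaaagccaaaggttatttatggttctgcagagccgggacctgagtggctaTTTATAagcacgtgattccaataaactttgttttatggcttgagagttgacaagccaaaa
The Crisp1 and Crisp3 windows were the same at 287 of 300 positions (95.7%), so reads could be shared between these copies and both genes' values are uncertain.

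Most promoter regions were open in every genotype. Of the 11454 promoter regions, 9165 (80.0%) were present in all 8 lists, against 27967 of 101957 other regions (27.4%). Here and below, other regions leave out the 355 wide regions at gene starts. They also leave out 3097 regions at an end of a protein-coding gene without a listed start and 2118 at a lncRNA start. Only 390 promoter regions (3.40%) were in a single list, against 21.3% of other regions. Between any 2 lists the shared fraction of promoter regions (the number in both lists over the number in either) was 0.878 to 0.942, with a median of 0.929 over 28 pairs. For other regions it was 0.520 to 0.681, with a median of 0.624. Promoter regions were wider than other regions, with a median of 1102 bp against 542 bp. Within a band of 700 to 1000 bp the contrast held, with 82.0% of promoter regions and 51.5% of other regions in all 8 lists. In regions 400 to 700 bp wide the shares were 44.3% of promoter regions and 22.6% of other regions.

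**Figure D1:**
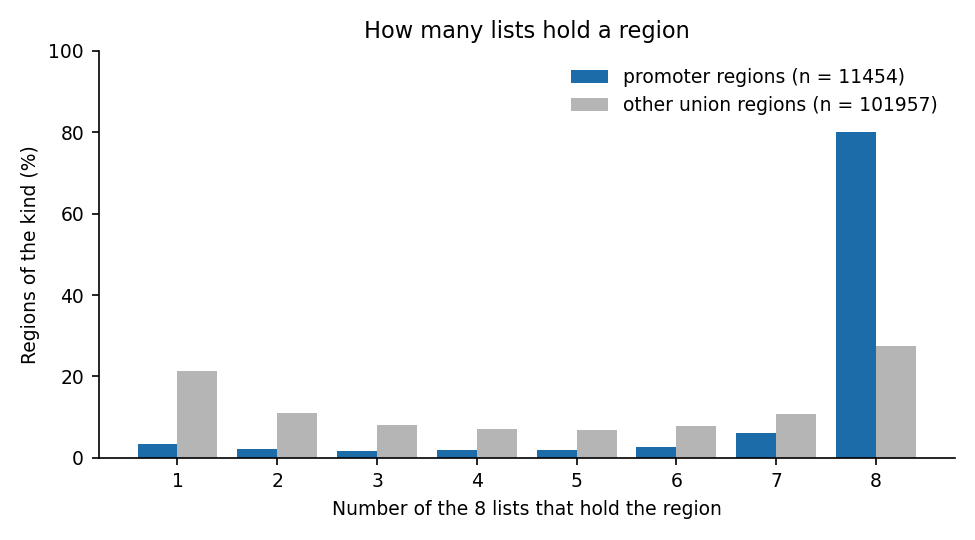
Share of promoter regions (blue) and of other union regions (grey) that were present in 1 to 8 of the peak lists. The blue bar at 8 lists stands at 80.0%, against 27.4% for the grey bar.

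The peaks at promoters were among the strongest of each list. Column values are the authors' own for each peak: the fold is the enrichment at the peak's summit over the caller's background, and −log10 p is the caller's evidence for the peak, on which a larger number is stronger. A region took the values of its strongest peak. In set 1 the median −log10 p of promoter regions was 181 with Flt3-ITD/Runx1-het, 165 with Flt3-ITD, 175 with Runx1-het and 160.3 in wild type. In set 2 the median was 161 with NUP98-HOXD13/Flt3-ITD, 156 with NUP98-HOXD13, 47.1 with Flt3-ITD and 225 in wild type. The set-2 Flt3-ITD list therefore stood apart with the lowest promoter −log10 p, and it also had the fewest regions, 55884 against 70341 to 86091 in the other lists. Its promoter fold did not stand apart to the same extent, with a median of 12.9 against 12.9 to 16.3 in the other lists. Read depth was not given in the files, so how much of this came from depth was not tested. Within each list promoter regions made up 31.8% to 38.5% of the strongest 25% of regions, although they were 12.6% to 17.3% of the list.

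**Figure D2:**
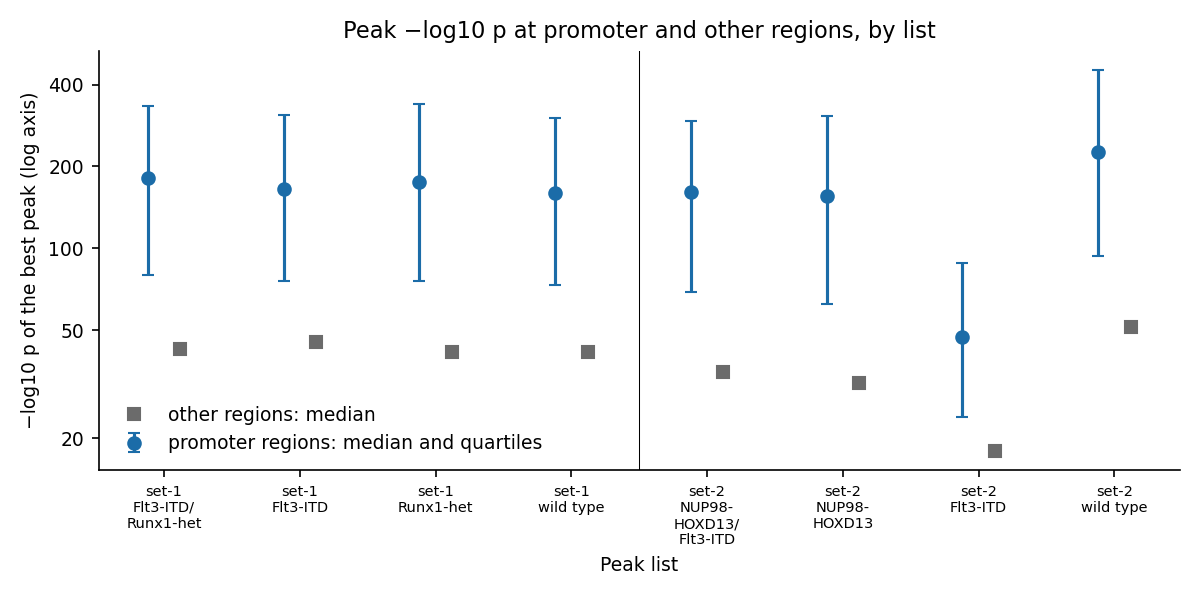
The −log10 p of the strongest peak in each region, on a log axis, for the 8 lists. Blue points and bars give the median and quartiles of promoter regions and grey squares the median of other regions. Promoter medians lie above those of other regions in each list, and the set-2 Flt3-ITD list is lowest for both.

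The 8 promoters named here were those with the highest rank in their weakest list. The Cggbp1 region (chr16:64851247-64852778) had a −log10 p in set 1 of 1375 with Flt3-ITD/Runx1-het, 1415 with Flt3-ITD, 1628 with Runx1-het and 1539 in wild type. In set 2 its −log10 p was 1033 with NUP98-HOXD13/Flt3-ITD, 1403 with NUP98-HOXD13, 435 with Flt3-ITD and 2311 in wild type. Its fold was closer between lists, from 20.4 with NUP98-HOXD13/Flt3-ITD to 25.1 in set-2 wild type, so the low −log10 p of the set-2 Flt3-ITD list was not matched by a low fold. The others of the 8 were those of Pitrm1, a mitochondrial peptidase, Hsd17b7, an enzyme of cholesterol synthesis, Pja2, Hjurp, Cldnd1, Ifrd1 and Dck. Hjurp loads centromeric histone and Dck encodes deoxycytidine kinase of nucleotide salvage. All 8 regions were in every list.

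Summits of promoter peaks lay just before the start. For 7441 regions that were in all 8 lists and held 1 start, the median summit was 31 to 37 bp upstream of the start, depending on the list. Between 60.9% and 63.9% of these summits were within 100 bp of the start. Among promoter regions in 2 to 7 lists, 40.7% to 43.5% of summits were within 100 bp. Promoter regions covered the start itself in 10461 cases (91.3%), and 817 regions (7.13%) served 2 or more genes.

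Gene groups differed in how many of their promoters were open, and the values are counts over the genes with a listed start. Over all such genes, 11043 of 16457 (67.1%) had a promoter region, and 9496 of those 11043 (86.0%) had one in all 8 lists. Of 57 cytoplasmic ribosomal protein genes, 53 had a region and 52 had it in all 8 lists. Proteasome subunit genes had one at 30 of 31, with 30 in all 8 lists. Of 29 cell cycle and replication genes, 28 had a region and 27 had it in all 8 lists. Of 301 Zfp zinc finger genes, 267 had a region and 249 had it in all 8 lists. These groups of broadly used genes thus lay above the share over all genes.

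Lists of blood genes differed among themselves. Of 28 haematopoietic transcription factors, 26 had a promoter region, each in all 8 lists. Kit, the stem cell factor receptor, Flt3, Cd34, Runx1, Gata2, Myb and Ptprc, all genes of blood progenitors, each had a region in all 8 lists. Of 30 interferon response genes, 30 had a region and 23 had one in all 8 lists. Of 20 granulocyte and monocyte genes, 11 had a region and 7 had it in all 8 lists. Of 15 genes of B, T and NK cells, 6 had a region and 1 had it in all 8 lists. Lists of other tissues differed as well, from 8 of 10 neuronal genes with a region to few of the liver and olfactory receptor genes. Of 12 liver genes, 2 had a region and 0 had it in all 8 lists, and Alb, the liver albumin gene, had no region. Cd3e, a part of the T cell receptor complex, also had no region. Of 934 olfactory receptor genes, 24 had a region and 5 had it in all 8 lists.

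Of 27 HOX, MEIS and PBX homeobox genes, 23 had a region and 8 had it in all 8 lists. Many of these genes are kept silent or active as clusters by Polycomb and Trithorax proteins in blood. Genes with several starts could keep one promoter in all lists and vary at another. Of 1078 genes with 2 or more promoter regions, 392 had each region in all 8 lists, 534 had at least 1 in all 8 lists and at least 1 that was not, and 152 had none in all 8 lists. Tank, a regulator of TRAF signalling, is an example: the region at chr2:61592804-61594331 was in all 8 lists, while the region at chr2:61578352-61578934 had no peak in either NUP98-HOXD13 list.

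The mutated genes' own promoters were read in each list. The Flt3 region (chr5:147399913-147400755) had a −log10 p in set 1 of 716 with Flt3-ITD/Runx1-het, 679 with Flt3-ITD, 722 with Runx1-het and 691 in wild type. In set 2 its −log10 p was 497 with NUP98-HOXD13/Flt3-ITD, 456 with NUP98-HOXD13, 160.4 with Flt3-ITD and 1041 in wild type, so Flt3 was open in each genotype. Both wider Runx1 promoters, at chr16:92825505-92826329 and chr16:92697173-92699013, were in all 8 lists. At the one nearer the 3′ end of the gene, −log10 p in set 1 was 148 with Flt3-ITD/Runx1-het, 118 with Flt3-ITD, 79.9 with Runx1-het and 82.1 in wild type, so the 2 lists with Runx1-het held the highest and the lowest value. The mouse Hoxd13 region (chr2:74668049-74668967) was a weak peak in set 1, at 21.5 with Flt3-ITD/Runx1-het, 20.8 with Flt3-ITD, 24.2 with Runx1-het and 20.4 in wild type. Set 2 had no peak in the 3 mutant lists and 14.2 in wild type. None of these promoter peaks tests a label, since an ITD, a heterozygous allele and a fusion transgene need not alter accessibility at them.

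Each mutant list was then set against the wild type of its own set. Presence was called without a test, so a region counted as gained was in the mutant list and not in wild type, and lost the reverse. With Flt3-ITD in set 1, 431 promoter regions (3.76%) were gained, against 13.6% of all regions, and 285 (2.49%) were lost, against 7.37% of all regions. With Runx1-het, 494 (4.31%) were gained, against 15.0% of all regions, and 209 (1.82%) were lost, against 6.29%. With Flt3-ITD/Runx1-het, 408 (3.56%) were gained, against 15.6% of all regions, and 334 (2.92%) were lost, against 7.91%. Gains thus outnumbered losses in the 3 mutant lists of set 1.

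In set 2 the balance ran the other way. With NUP98-HOXD13, 223 promoter regions (1.95%) were gained, against 8.85% of all regions, and 557 (4.86%) were lost, against 17.3%. With Flt3-ITD, 84 (0.733%) were gained, against 3.3% of all regions, and 1246 (10.9%) were lost, against 28.7%. With NUP98-HOXD13/Flt3-ITD, 247 (2.16%) were gained, against 8.13% of all regions, and 539 (4.71%) were lost, against 18.7%. Each of these 12 promoter shares was below that over all regions.

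Pairs of lists with equal genotype gave counts of the same size. Set-2 wild type against set-1 wild type had 593 promoter regions gained (5.18%, against 18.9% of all regions) and 182 lost (1.59%, against 5.63%). Set-2 Flt3-ITD against set-1 Flt3-ITD had 130 gained (1.13%, against 4.41%) and 1027 lost (8.97%, against 22.8%). The 3 comparisons within a set share their wild-type list. When each mutant list was set against the wild type of the other set, the balance turned in 5 of the 6 comparisons. Flt3-ITD in set 1, for example, then had 209 gained and 474 lost, and NUP98-HOXD13 had 432 gained and 355 lost. The direction of the gained and lost counts therefore rested on the wild-type list used.

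**Figure D3:**
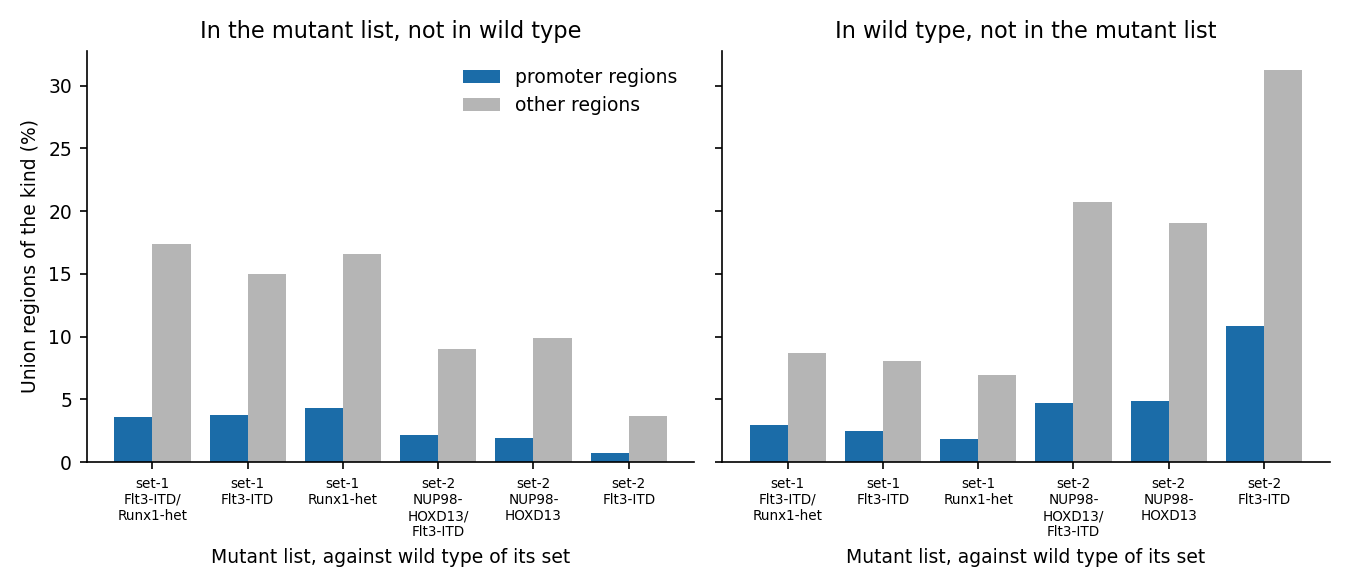
Share of promoter regions (blue) and other regions (grey) that were in a mutant list and not in wild type of its set (left panel), or in wild type and not in the mutant list (right panel). In each of the 6 comparisons the blue bar is below the grey bar, and the highest blue bar is 10.9%, for regions lost with Flt3-ITD in set 2.

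Promoters that changed presence were mostly weak peaks. Among promoter regions in the strongest 25% of a list, 0 to 4 were gained and 2 to 17 lost across the 6 comparisons. Among all union regions in the strongest 25%, 5 to 60 were gained and 2 to 244 lost. In set 1 promoters were 2 of 5 strong losses with Flt3-ITD, 2 of 2 with Runx1-het and 2 of 6 with Flt3-ITD/Runx1-het. They were 0 of 20, 0 of 9 and 4 of 60 strong gains, in the same order. The set-1 Flt3-ITD gain with the highest rank was Olfr1258, an olfactory receptor gene (chr2:89929882-89930745). Its −log10 p in set 1 was 157 with Flt3-ITD/Runx1-het and 111 with Flt3-ITD, with no peak with Runx1-het or in wild type. Set 2 had 107 with NUP98-HOXD13/Flt3-ITD, 35.6 with NUP98-HOXD13 and 39.8 with Flt3-ITD, with no peak in wild type. All 4 Flt3-ITD lists thus held it, and 1 list without Flt3-ITD did.

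Some strong promoters were missing from a single list, a group picked out after the values were seen. Of the promoter regions present in 7 lists, 453 (3.95% of promoter regions, against 5.61% of all union regions) were missing only from the set-2 Flt3-ITD list. The counts for the other lists were 11 to 62 (0.0960% to 0.541% of promoter regions, against 0.214% to 1.06% of all union regions). Rasl11b, which encodes a small GTPase (chr5:74194780-74195733), was missing only from the set-1 Flt3-ITD list. Its −log10 p in the rest of set 1 was 336 with Flt3-ITD/Runx1-het, 379 with Runx1-het and 327 in wild type. Its fold there was 20.7 to 23.8. Polrmt, the mitochondrial RNA polymerase (chr10:79746099-79747089), was missing only from the Flt3-ITD/Runx1-het list and had 308 with Flt3-ITD, 319.8 with Runx1-het and 285 in wild type. Daxx, a histone chaperone (chr17:33908657-33910303), was missing only from the NUP98-HOXD13/Flt3-ITD list and had 349.5 with NUP98-HOXD13, 99.9 with Flt3-ITD and 396 in set-2 wild type. Zfp329, a zinc finger gene (chr7:12818229-12819203), was missing only from the Runx1-het list. Each of these had strong peaks in the other 7 lists, and whether the gap reflects chromatin or peak calling was not tested.

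To ask which promoters followed a mutation, regions were sought that were present in both lists of a set that carry it and in neither list that lacks it, or the reverse. Presence of single regions was sensitive to the number of peaks taken: with equal numbers from each list, 138 of the 381 regions named or listed across all comparisons were in another number of lists. With Flt3-ITD in set 1 only, there were 61 promoter regions, where 2.78% of all regions and 0.533% of promoter regions met the rule. Without it only, there were 72, or 0.629% of promoter regions against 1.79% of all regions. The promoter shares were thus lower than those over all regions in both directions. Socs3 illustrates the group, since a second region upstream of its start (chr11:117969839-117970315) was called with Flt3-ITD/Runx1-het (21.2) and Flt3-ITD (13.2) and had no peak with Runx1-het or in set-1 wild type. In set 2 the same region had 28.2 with NUP98-HOXD13/Flt3-ITD, 16.3 with NUP98-HOXD13, no peak with Flt3-ITD and 27.8 in wild type, so the split was not kept there. Fam180a (chr6:35325892-35326704) had 52.9 with Flt3-ITD/Runx1-het and 107 with Flt3-ITD, and no peak in any other list. Ctsg, the neutrophil protease cathepsin G (chr14:56102308-56102835), had 32.6 with Flt3-ITD/Runx1-het and 18.2 with Flt3-ITD, no peak in the other lists of set 1, and 10.4 with NUP98-HOXD13 in set 2. Il12a, a cytokine subunit gene, had a small region (chr3:68691145-68691509) beside its main promoter that was 40.9 with Flt3-ITD/Runx1-het and 50.5 with Flt3-ITD, with no peak in the set-1 lists that lack Flt3-ITD. In set 2 that small region had 29.2 with NUP98-HOXD13/Flt3-ITD and 39.6 in wild type, and no peak in the other lists. The main Il12a promoter was in all 8 lists.

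Among promoters called only without Flt3-ITD in set 1 were those of Ccr9, a chemokine receptor of lymphoid and dendritic progenitors, and Mrc1, the mannose receptor of macrophages. Ccr9 (chr9:123766950-123767468) had no peak in the 4 Flt3-ITD lists, while its −log10 p was 13.4 with Runx1-het and 21.4 in wild type of set 1, and 9.72 with NUP98-HOXD13 and 19.5 in wild type of set 2. Mrc1 (chr2:14228519-14229985) likewise had no peak in the 4 Flt3-ITD lists, and had 28.0 with Runx1-het and 16.1 in wild type of set 1, and 14.8 with NUP98-HOXD13 and 26.0 in wild type of set 2. These were therefore weak peaks in each list that held them. Of the 30 interferon response genes with a region, Ifitm3 and Gbp3 each had a region called only without Flt3-ITD in set 1. Ifitm3 is an antiviral membrane protein gene, and its region at chr7:141010548-141011042 had 20.9 with Runx1-het, 13.3 in set-1 wild type and no other peak. The main Gbp3 promoter (chr3:142559988-142561150) was in all 8 lists, and only a weak neighbour at chr3:142559648-142559880, at 9.46 with Runx1-het and 9.04 in wild type, followed the split.

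In set 2, 10 promoter regions (0.0873%) were present with Flt3-ITD only, against 0.455% of all regions. Without it only there were 134 (1.17%), against 4.45% of all regions. The set-2 Flt3-ITD list was the one with the fewest regions. With equal numbers of peaks the counts were 35 and 64, and without that list 144 and 229. The imbalance was thus smaller under both settings and kept its direction, and its cause was not tested. At a −log10 q of at least 5, 4 were present with Flt3-ITD only. The 10 included Neurog3, a transcription factor of endocrine cells, and Cd300lb, a receptor of myeloid cells. Cd300lb (chr11:114933994-114934812) had 20.5 with NUP98-HOXD13/Flt3-ITD and 6.997 with Flt3-ITD, and no peak with NUP98-HOXD13 or in set-2 wild type. In set 1 the same region was in all 4 lists, at 40.8 with Flt3-ITD/Runx1-het, 19.7 with Flt3-ITD, 27.9 with Runx1-het and 19.3 in wild type. Across both sets, 1 promoter region (0.00873%) was in the 4 Flt3-ITD lists only, against 0.0597% of all regions. In the 4 lists without it only there were 15 (0.131%), against 0.193%. The 1 region was at C130050O18Rik (chr5:139404961-139405400), with 30.5 with Flt3-ITD/Runx1-het and 34.0 with Flt3-ITD in set 1, and 17.0 with NUP98-HOXD13/Flt3-ITD and 4.90 with Flt3-ITD in set 2. The 15 were Ccr9, Mrc1, Ankrd22, Celf2, Cxcl1, Hrk, Evl, Izumo1r, Cntn2, Cpsf3, Rnase4, Ak1, Sstr4, Garem2 and Iho1. The first by rank in its weakest list was Ankrd22 (chr19:34165899-34166273), at 44.7 with Runx1-het and 37.4 in wild type of set 1, and 27.7 with NUP98-HOXD13 and 44.6 in wild type of set 2. Cxcl1, a neutrophil chemokine (chr5:90890568-90891711), had 8.95 with Runx1-het, 21.7 in set-1 wild type, 28.3 with NUP98-HOXD13 and 29.7 in set-2 wild type. Celf2 and Evl each kept other promoters in all 8 lists.

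For Runx1-het, 62 promoter regions (0.541%) were in both lists with it only, against 2.38% of all regions. In both without it only there were 41 (0.358%), against 1.13%. Ifit3, an interferon-induced gene (chr19:34583036-34583600), had 32.3 with Flt3-ITD/Runx1-het and 33.7 with Runx1-het, and no peak in the other 6 lists. Satb1, a chromatin organiser of lymphoid cells, had a small region (chr17:51811545-51811783) at 17.99 with Flt3-ITD/Runx1-het and 10.9 with Runx1-het and no other peak in set 1, while its wider promoter was in all 8 lists. Txk, a kinase of T and NK cells (chr5:72752540-72753133), went the other way, with no peak in either Runx1-het list and 37.4 with Flt3-ITD and 24.8 in wild type. In set 2 Txk had no peak in either NUP98-HOXD13 list, 11.9 with Flt3-ITD and 84.0 in wild type.

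For NUP98-HOXD13, 77 promoter regions (0.672%) were in both lists with it only, against 2.81% of all regions. In both without it only there were 44 (0.384%), against 2.08%. Of the 23 HOX, MEIS and PBX genes with a region, only Hoxd4 and Hoxa13 had one in both fusion lists and in neither other list of set 2. Hoxd13 had a peak in set-2 wild type and in no mutant list of that set, and Meis1 ranked lower with the fusion. Hoxd4 (chr2:74721813-74722217), whose sequence is given above, had 29.4 with NUP98-HOXD13/Flt3-ITD and 29.1 with NUP98-HOXD13, and no peak in the other 6 lists. Hoxa13 (chr6:52260073-52261563) had 27.2 with NUP98-HOXD13/Flt3-ITD and 20.2 with NUP98-HOXD13, and no peak with Flt3-ITD or in wild type of set 2. In set 1, however, Hoxa13 had 34.4 with Flt3-ITD/Runx1-het, 24.6 with Flt3-ITD and 15.98 with Runx1-het, and no peak in wild type. Among those absent with the fusion was the upstream Tank promoter, at 29.3 with Flt3-ITD and 184 in wild type of set 2. It was in all 4 lists of set 1, at 80.9 with Flt3-ITD/Runx1-het, 63 with Flt3-ITD, 92.7 with Runx1-het and 95.8 in wild type. Adam19, a membrane protease (chr11:46055819-46056696), was also absent from both NUP98-HOXD13 lists and had 13.9 with Flt3-ITD and 56.3 in wild type of set 2.

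Presence misses promoters that stay open and change in strength. The 9165 promoter regions in all 8 lists were therefore ranked within each list by −log10 p, with 100 for the strongest, so that each list ranked the same regions. This ranking was added after presence had been examined. The median difference in rank between a mutant list and wild type of its set was 3.57 to 6.32 points, and between the 2 wild-type lists it was 4.95 points and between the 2 Flt3-ITD lists 5.89 points. The shifts between genotypes were thus of about the same size as those between sets. A promoter was listed when both ranks with a mutation were more than 10 points above, or below, both ranks without it.

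With Flt3-ITD in set 1, 106 promoters ranked higher (1.16%, against 4.75% of other regions ranked in the same way) and 64 lower (0.698%, against 4.52%). The widest gap was at Crisp1 (chr17:40319016-40319683). Its −log10 p in set 1 was 318 with Flt3-ITD/Runx1-het, 341 with Flt3-ITD, 114 with Runx1-het and 78.9 in wild type. Its rank in set 1 was 68.7 with Flt3-ITD/Runx1-het, 75.8 with Flt3-ITD, 25.2 with Runx1-het and 18 in wild type. In set 2 its rank was 63.4 with NUP98-HOXD13/Flt3-ITD, 89 with Flt3-ITD, 42.7 with NUP98-HOXD13 and 53.2 in wild type. The Flt3-ITD lists did not overlap with the others in either set, and the gap was wider in set 1. Crisp3, its near-identical neighbour (chr17:40242144-40242742), ranked 44.3 with Flt3-ITD/Runx1-het, 34.4 with Flt3-ITD, 2.23 with Runx1-het and 1.74 in wild type in set 1. In set 2 it ranked 13.8 with NUP98-HOXD13/Flt3-ITD, 47.8 with Flt3-ITD, 0.944 with NUP98-HOXD13 and 4.81 in wild type, and both sets had their Flt3-ITD lists highest. The fold of Crisp3 in set 1 was 28.5 with Flt3-ITD/Runx1-het, 24.8 with Flt3-ITD, 9.3 with Runx1-het and 9.03 in wild type, in the same order of groups.

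Klf9, a transcription factor induced by steroid hormones (chr19:23140571-23142330), also ranked higher, at 74.8 with Flt3-ITD/Runx1-het, 78.2 with Flt3-ITD, 52 with Runx1-het and 39.5 in wild type in set 1. In set 2 Klf9 ranked 46.7 with NUP98-HOXD13/Flt3-ITD, 64.5 with Flt3-ITD, 44.2 with NUP98-HOXD13 and 33.4 in wild type, again with both Flt3-ITD lists above both without. Pim1, a kinase gene and a known STAT5 target (chr17:29490098-29491478), ranked 64.4 with Flt3-ITD/Runx1-het, 65.2 with Flt3-ITD, 38.4 with Runx1-het and 49.1 in wild type in set 1. In set 2 Pim1 ranked 80.3 with NUP98-HOXD13/Flt3-ITD, 81.3 with Flt3-ITD, 68.7 with NUP98-HOXD13 and 58 in wild type, so it was higher with Flt3-ITD in both sets. Lower in set 1 were Jak3, a kinase of cytokine receptors (chr8:71675945-71676840), at 14.5 with Flt3-ITD/Runx1-het, 12 with Flt3-ITD, 30.9 with Runx1-het and 45.1 in wild type, and Spry2, a feedback inhibitor of MAPK signalling (chr14:105896877-105898042), at 57.9 with Flt3-ITD/Runx1-het, 62.4 with Flt3-ITD, 79.1 with Runx1-het and 75.9 in wild type. In set 2 Jak3 ranked 22.5 with NUP98-HOXD13/Flt3-ITD, 35.3 with Flt3-ITD, 33.6 with NUP98-HOXD13 and 31.7 in wild type, and the groups overlapped.

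In set 2, 53 promoters ranked higher with Flt3-ITD (0.578%, against 3.87% of other regions) and 52 lower (0.567%, against 3.52%). Socs3 was among them. The main Socs3 region (chr11:117968674-117969738) had a −log10 p in set 2 of 119 with NUP98-HOXD13/Flt3-ITD, 38 with Flt3-ITD, 31.8 with NUP98-HOXD13 and 57.5 in wild type. Its rank there was 30.8 with NUP98-HOXD13/Flt3-ITD, 38.1 with Flt3-ITD, 4.79 with NUP98-HOXD13 and 4.76 in wild type, with no overlap between the groups. In set 1 its rank was 53.5 with Flt3-ITD/Runx1-het, 32.7 with Flt3-ITD, 33.6 with Runx1-het and 24.3 in wild type, where the groups overlapped. Of 17 STAT5 target and MAPK feedback genes with a promoter in all 8 lists, Pim1 and Socs3 were the 2 that ranked higher with Flt3-ITD in set 2 and 0 ranked lower. In set 1, 1 of the 17 ranked higher with Flt3-ITD (Pim1) and 1 ranked lower (Spry2).

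Across both sets, 2 promoters ranked more than 10 points higher in the 4 Flt3-ITD lists than in the 4 without (0.0218%, against 0.279% of other regions) and 1 ranked lower (0.0109%, against 0.122%). The 2 were Crisp1, given above, and Camkk2, a kinase that activates other kinases on calcium signals (chr5:122778493-122780037). Camkk2 ranked 29.8 with Flt3-ITD/Runx1-het, 29.2 with Flt3-ITD, 16.3 with Runx1-het and 18.8 in wild type in set 1. In set 2 Camkk2 ranked 29.6 with NUP98-HOXD13/Flt3-ITD, 43.3 with Flt3-ITD, 15.2 with NUP98-HOXD13 and 10.9 in wild type, so its groups did not overlap in either set. The 1 lower promoter was the upstream start of Nav2, a cytoskeleton-associated gene (chr7:48958474-48959702), which ranked 14.1 with Flt3-ITD/Runx1-het, 24.4 with Flt3-ITD, 39.5 with Runx1-het and 37.2 in wild type in set 1. In set 2 it ranked 18.8 with NUP98-HOXD13/Flt3-ITD, 15.9 with Flt3-ITD, 37.5 with NUP98-HOXD13 and 37.5 in wild type, while the downstream Nav2 promoter at chr7:49245454-49246775 stayed among the strong ones, with ranks of 84.3 to 94.8. Serpina3g (chr12:104235508-104236741), whose sequence is given above, came just under the limit. It ranked 25.8 with Flt3-ITD/Runx1-het, 26.2 with Flt3-ITD, 10.3 with Runx1-het and 9.31 in wild type in set 1, and 21.9 with NUP98-HOXD13/Flt3-ITD, 19.8 with Flt3-ITD, 11.1 with NUP98-HOXD13 and 5.89 in wild type in set 2. It belongs to a cluster of closely related serpin genes, so its reads could be shared with another copy.

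For Runx1-het, 46 promoters ranked higher and 46 lower (0.502% each, against 2.46% and 2.55% of other regions). The Vav1 promoter (chr17:57278730-57279486) ranked 96.3 with Flt3-ITD/Runx1-het, 94.4 with Runx1-het, 64.9 with Flt3-ITD and 67.2 in wild type in set 1. Its −log10 p there was 694 with Flt3-ITD/Runx1-het, 691 with Runx1-het, 268 with Flt3-ITD and 273 in wild type. In set 2 its rank was 97.5 with NUP98-HOXD13/Flt3-ITD, 91.1 with NUP98-HOXD13, 63.7 with Flt3-ITD and 62.9 in wild type, so it was also higher in the lists with NUP98-HOXD13. Its fold was 15.3 to 17.3 in the Runx1-het lists against 11.2 to 11.6 in the others of set 1, and 14.2 to 14.6 in the NUP98-HOXD13 lists against 10.9 to 11.6 in the others of set 2. Vav1 regulatory sequence drives a widely used NUP98-HOXD13 transgene and a widely used Cre transgene of blood cells, and reads from such a transgene would be counted at this region. Accessibility of the Vav1 gene and transgene copies of its promoter cannot be told apart here. Tnpo3, a nuclear import receptor (chr6:29608958-29610252), ranked 75 with Flt3-ITD/Runx1-het, 65.3 with Runx1-het, 21.4 with Flt3-ITD and 31.7 in wild type in set 1. Mcm2, a subunit of the replicative helicase (chr6:88898358-88898995), ranked 38.8 with Flt3-ITD/Runx1-het, 44.4 with Runx1-het, 25.3 with Flt3-ITD and 25.3 in wild type in set 1. Trim30a, an interferon-induced gene, ranked lower at its upstream region (chr7:104464689-104466002), at 48.4 with Flt3-ITD/Runx1-het, 50.1 with Runx1-het, 61.6 with Flt3-ITD and 65.8 in wild type. Mcm2 was 1 of 27 cell cycle and replication genes, and Trim30a 1 of 23 interferon response genes, with a promoter in all 8 lists. No other member of either list differed in rank by this rule, and Ifit3, given above, was present only with Runx1-het.

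For NUP98-HOXD13 there were 213 promoters higher (2.32%, against 8.41% of other regions) and 361 lower (3.94%, against 8.33%). The balance depended on the ranking, since ranks by fold gave 219 higher and 233 lower, and ranks taken over all regions in all 8 lists gave 898 higher and 199 lower. Lower promoters included 3 of the 13 stem cell genes with a promoter in all 8 lists, Robo4, Meis1 and Pdzk1ip1. Robo4, a receptor of stem cells and endothelium (chr9:37401572-37402354), had a −log10 p in set 2 of 97.6 with NUP98-HOXD13/Flt3-ITD, 148 with NUP98-HOXD13, 138 with Flt3-ITD and 621 in wild type. It ranked 24.2 with NUP98-HOXD13/Flt3-ITD, 40.9 with NUP98-HOXD13, 88.9 with Flt3-ITD and 82.2 in wild type in set 2, with no overlap, and 71.4 to 80.3 in the 4 lists of set 1. Its fold was 11.4 with NUP98-HOXD13/Flt3-ITD, 14.6 with NUP98-HOXD13, 22.2 with Flt3-ITD and 21.8 in wild type. Meis1, a homeobox cofactor of HOX proteins (chr11:19018351-19019248), ranked 55.3 with NUP98-HOXD13/Flt3-ITD, 55.8 with NUP98-HOXD13, 79.2 with Flt3-ITD and 74.6 in wild type in set 2. Cd34, the progenitor surface marker (chr1:194938574-194939332), ranked 66.6 with NUP98-HOXD13/Flt3-ITD, 70.6 with NUP98-HOXD13, 90.1 with Flt3-ITD and 86.7 in wild type, and Il7r, the interleukin-7 receptor of lymphoid progenitors (chr15:9529534-9530301), ranked 31.2 with NUP98-HOXD13/Flt3-ITD, 33.6 with NUP98-HOXD13, 50.5 with Flt3-ITD and 48.2 in wild type. Also lower were Siglech, a marker of plasmacytoid dendritic cells, and Ltf, the granule protein lactotransferrin. Siglech was 1 of 7 dendritic cell genes, and Ltf 1 of 7 granulocyte and monocyte genes, with a promoter in all 8 lists. Il7r was 1 of 12 such lymphoid priming genes. Of 26 haematopoietic transcription factors with a promoter in all 8 lists, Meis1 ranked lower and no other member differed in rank by this rule. Cd34 came from the progenitor markers named earlier, whose other ranks are not given here. By gene list, 13 of 141 solute carriers and 11 of 249 Zfp genes were lower, while 2 and 4 were higher.

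Promoters higher with NUP98-HOXD13 included Igf2bp3, an RNA-binding protein gene of fetal progenitors, Tfrc, the transferrin receptor, Birc5, a survival factor of dividing cells, and Notch1. Of genes with a promoter in all 8 lists, Igf2bp3 was 1 of 3 fetal progenitor genes and Tfrc 1 of 5 erythroid and megakaryocyte genes. Birc5 was 1 of 27 cell cycle and replication genes and Notch1 1 of 12 lymphoid priming genes. No other member of these lists ranked higher, and Il7r, a lymphoid priming gene like Notch1, ranked lower. Igf2bp3 (chr6:49215306-49215858) had a −log10 p in set 2 of 94.3 with NUP98-HOXD13/Flt3-ITD, 122 with NUP98-HOXD13, 9.21 with Flt3-ITD and 52.7 in wild type. It ranked 23 with NUP98-HOXD13/Flt3-ITD, 33.9 with NUP98-HOXD13, 2.41 with Flt3-ITD and 3.74 in wild type in set 2, and 0.873 to 6.81 in set 1. Tfrc (chr16:32608494-32609738) ranked 84 with NUP98-HOXD13/Flt3-ITD, 74.7 with NUP98-HOXD13, 53.5 with Flt3-ITD and 60.9 in wild type. Notch1 (chr2:26503128-26504439) ranked 52.9 with NUP98-HOXD13/Flt3-ITD, 53.5 with NUP98-HOXD13, 42.1 with Flt3-ITD and 42.3 in wild type. H2-Q7, an MHC class I gene (chr17:35438772-35439774), ranked 50.4 with NUP98-HOXD13/Flt3-ITD, 37.6 with NUP98-HOXD13, 16 with Flt3-ITD and 13.1 in wild type, and it is uncertain because reads could be shared with its near-identical copy H2-Q6.

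**Figure D4:**
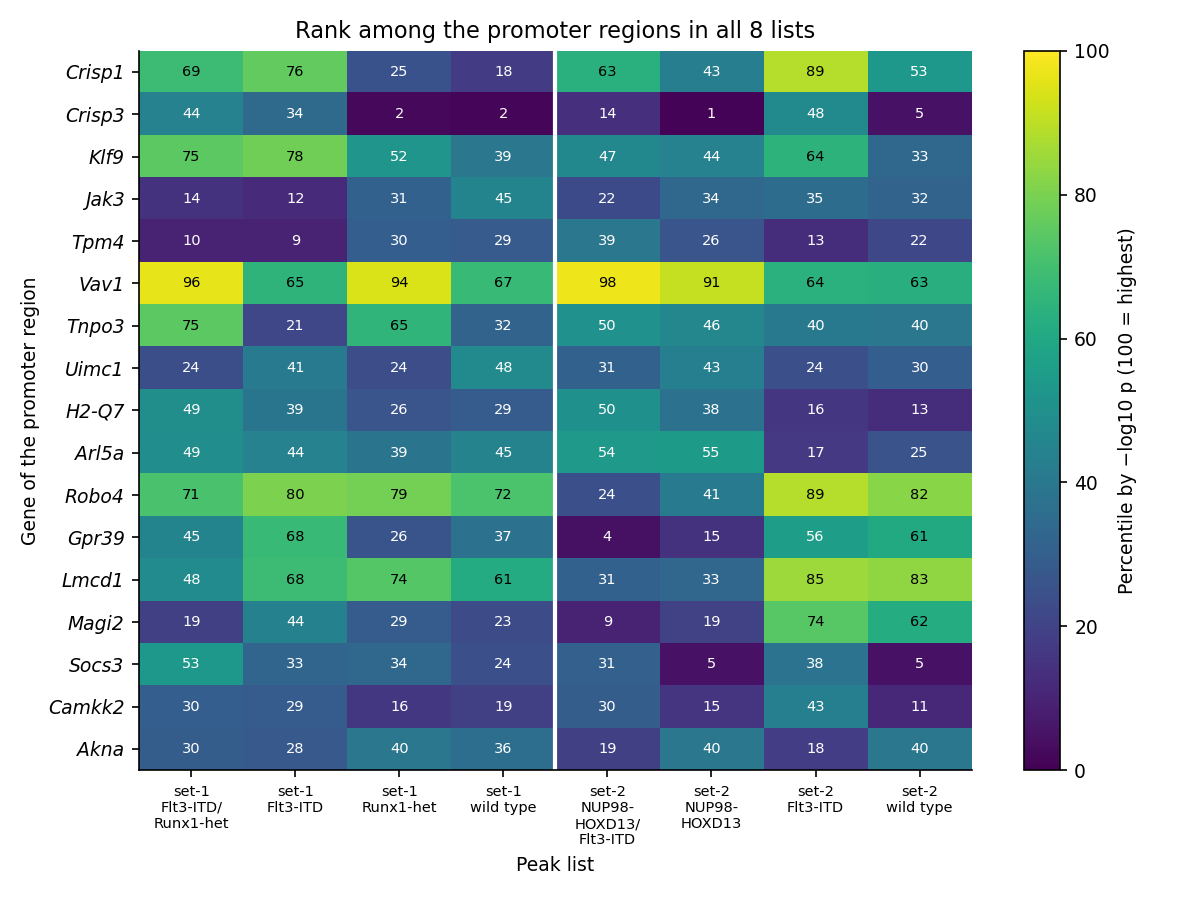
Rank by −log10 p (0 to 100, 100 strongest) of 17 promoters among the 9165 in all 8 lists, one column a list, mutants left of wild type within each set. Crisp1 is higher in both set-1 Flt3-ITD lists, Vav1 in the lists with Runx1-het or NUP98-HOXD13, and Robo4 is lowest in both NUP98-HOXD13 lists.

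Some ranks stood apart in 1 list alone. Dnajb14, a chaperone gene (chr3:137867493-137868259), ranked 67.4 with NUP98-HOXD13/Flt3-ITD, against 2.76 to 10.6 in the other 7 lists. Its fold of 3.25 in that list lay within the 3.07 to 3.85 of the others, so −log10 p and fold did not move together. Mettl17, a mitochondrial ribosome factor (chr14:51884377-51885425), ranked 16.1 in set-2 wild type, against 71.0 to 85.7 in the other 7 lists, while its fold there was 19.8, against 14.3 to 20.5.

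Sequence went with presence. A start was called CpG-rich when its 300-base window had a GC content of at least 50% and a CpG count of at least 0.6 of that expected from its base composition. Of 8983 CpG-rich starts, 8737 (97.3%) had a promoter region, and 92.0% of those were in all 8 lists. Of 10643 CpG-poor starts, 4494 (42.2%) had one, and 70.0% of those were in all 8 lists. The CpG-rich share was 71.9% of starts with a region in all 8 lists, 45.3% with 7 lists, 20.4% with 1 list and 3.85% with no region.

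The letters searched, on both strands, were GGGCGG for the GC box, CCGGAAG for ETS, CCAATC for CCAAT, TGACGTCA for CRE, GCGCATGCG for NRF1, AAGATGGCG for YY1, TATAAA for TATA, TTCNNNGAA for STAT, TGTGGT for RUNX, GATAAG for GATA, GAAANNGAA for interferon and TGACTCA for AP-1. ETS letters were in 18.5% of windows with a region in all 8 lists and 2.52% with no region, against 11.9% of all listed starts. GC box letters were in 66.8% of windows with a region in all 8 lists and 11.3% with no region, against 47.0% of all. TATA letters ran the other way, with 6.17% for all 8 lists and 25.4% for no region, against 12.7% of all. RUNX letters were in 12.01% with a region in all 8 lists and 20.3% with no region, against 14.8% of all. A match describes the letters and not a bound site.

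**Figure D5:**
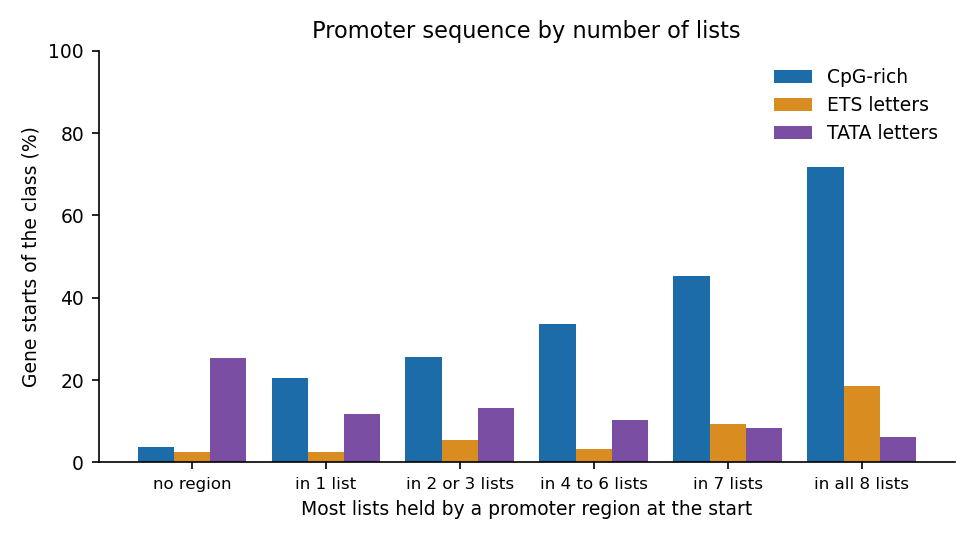
Share of gene starts that were CpG-rich (blue), or held ETS (orange) or TATA letters (purple) in the 300-base window, by the most lists in which a promoter region at the start was present. The CpG-rich share is 3.85% with no region and 71.9% in all 8 lists, and TATA letters run from 25.4% to 6.17%.

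Promoters whose rank differed with NUP98-HOXD13 also differed in sequence by direction. Of starts at promoters that ranked higher, 85.5% were CpG-rich and 27.9% held ETS letters, against 37.9% and 4.29% of starts at promoters that ranked lower. With ranks by fold the CpG-rich shares were 83.2% and 44.9%. With Flt3-ITD in set 2 the CpG-rich shares were 86.2% for higher and 46.6% for lower, and with Flt3-ITD in set 1 they were 72.6% and 59.7%. With Runx1-het they were 75.9% and 45.3%, and ETS letters were at 29.6% and 5.66%. With Flt3-ITD the ETS shares were close, at 12.9% for higher and 13.9% for lower in set 1, and 16.9% and 12.1% in set 2. Over all promoters in all 8 lists, 71.9% of starts were CpG-rich and 18.5% held ETS letters. Ranked by fold, the CpG-rich shares were 70.5% and 65.9% with Runx1-het, and 72.4% and 64.8% with Flt3-ITD in set 1. With Flt3-ITD in set 2 they were 73.0% and 51.1%. The CpG contrast was thus smaller by fold in each split, and small with Runx1-het, whose ETS shares by fold were 31.1% and 10.6%. The ETS shares by fold with Flt3-ITD were 14.2% for higher and 20.8% for lower in set 1, and 11.9% and 18.3% in set 2.

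Of the starts with a promoter region present only with Flt3-ITD in set 1, 15 of 68 (22.1%) held STAT letters, against 6.43% of starts with a region in all 8 lists and 7.78% of all listed starts. This was picked out after 12 letter patterns had been read in 16 classes of regions. With equal numbers of peaks taken from each list it was 7 of 57 (12.3%), and in the 10 regions present only with Flt3-ITD in set 2 there were 0 such starts. With promoters taken as 1000 bp on either side it was 17 of 116 (14.7%). Classes of starts held in few lists also had more STAT letters, with 10.6% at 2 or 3 lists, 12.8% at 1 list and 10.3% with no region. STAT factors act downstream of FLT3, and whether they act at these promoters was not tested. The STAT letters were inside the called region for 11 of the 15 genes, a share that was not measured for other classes. The 5 of these whose weaker set-1 Flt3-ITD peak was strongest, and Ctsg, are shown with 16 bases on either side and the STAT letters in capitals, from RefSeq on build GRCm38.p6, on the gene's strand: Col6a5 (chr9:105960828-105960868, minus strand), Gm6749 (chr6:108880594-108880634, plus strand), Fgf23 (chr6:127072785-127072825, plus strand), Gramd2 (chr9:59707467-59707507, plus strand), Mcf2l (chr8:12949348-12949388, plus strand) and Ctsg (chr14:56102739-56102779, minus strand).
Col6a5: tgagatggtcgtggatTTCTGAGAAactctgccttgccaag
Gm6749: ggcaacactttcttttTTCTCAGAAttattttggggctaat
Fgf23: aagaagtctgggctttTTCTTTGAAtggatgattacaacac
Gramd2: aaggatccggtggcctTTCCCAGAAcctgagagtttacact
Mcf2l: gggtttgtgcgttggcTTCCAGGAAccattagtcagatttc
Ctsg: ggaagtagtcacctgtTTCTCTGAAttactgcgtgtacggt
The Col6a5 region (chr9:105960455-105961467) had 35.7 with Flt3-ITD/Runx1-het and 35.3 with Flt3-ITD in set 1, and 13.2 with Flt3-ITD in set 2, and no peak in the other 5 lists. The Fgf23 region (chr6:127072673-127073363) had 22.5 with Flt3-ITD/Runx1-het and 50.5 with Flt3-ITD in set 1, but was in all 4 lists of set 2, at 17.9 with NUP98-HOXD13/Flt3-ITD, 18 with Flt3-ITD, 20.1 with NUP98-HOXD13 and 90.3 in wild type. The Gm6749 region (chr6:108880326-108881210) had 23.4 with Flt3-ITD/Runx1-het and 43.1 with Flt3-ITD in set 1, while in set 2 it had no peak with Flt3-ITD alone. Presence in set 2 therefore did not follow Flt3-ITD at Fgf23 or Gm6749. Nor did it fully at Col6a5, which had no peak with NUP98-HOXD13/Flt3-ITD.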

How the data were processed

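ATAC-seq libraries from 16 samples had been aligned with Bowtie2 and peaks called with MACS2 on mm10 (GRCm38), per the submitters' processing notes. Versions, thresholds, read shifting, filters and read depth were not given in the sources used here. The authors deposited 1 peak list per genotype and set, from 2 pooled libraries, per the labels. Its columns hold a score of 413 to 1000, the fold enrichment (a ratio), −log10 p and −log10 q, all deposited by the authors. The score was not used in any comparison.

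Peaks were merged at an overlap of 1 bp. Gene starts and the 300-base promoter windows came from RefSeq tables for GRCm38.p6. Presence in a list was compared without a test, as each group was 1 list. Ranks used −log10 p within a list. Python 3.11.15, numpy 2.4.6 and pandas 2.3.3 were used, and the steps were tested on simulated data. A comparison's named genes were the 5 gained and 5 lost regions with the best rank, the 6 per direction for a mutation, the 8 strongest, those at the limits and the gene list members. The members and lists were chosen with earlier results of these data known. Genes named for a rank gap, a single missing list or STAT letters were chosen after their values were seen. At the width limit, Micall1 and Nfatc2 (1999 bp) were inside and Zfp839 and Tfeb (2000 bp) outside, each in 8 lists. At the distance limit, Tmed6 (2 lists) and Msl2 (1 list), both at 499 bp, were inside, and Hgf (501 bp, 2 lists) and Nufip2 (502 bp, 1 list) outside. The alternatives tried were other windows, width limits, peak numbers, a −log10 q limit, the other wild type, ranks by fold and over all regions, and leaving out the set-2 Flt3-ITD list.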

Additional observations from a re-analysis of the deposited data

Results flagged for a closer look

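The promoters of Gpr84 and Vill followed Flt3-ITD in opposite directions in the 2 sets. Gpr84 encodes a fatty acid receptor of myeloid cells. Its region had a −log10 p of 24.95 with Flt3-ITD/Runx1-het and 9.56 with Flt3-ITD, and no peak with Runx1-het or in wild type of set 1. In set 2 it had no peak with NUP98-HOXD13/Flt3-ITD or Flt3-ITD, 7.98 with NUP98-HOXD13 and 8.52 in wild type. Vill encodes a villin-like actin regulator. Its region had 12.1 with Flt3-ITD/Runx1-het and 35.3 with Flt3-ITD, and no peak with Runx1-het or in wild type of set 1. In set 2 it had no peak with NUP98-HOXD13/Flt3-ITD or Flt3-ITD, 26.1 with NUP98-HOXD13 and 64.1 in wild type. The difference between the sets was not tested, since each group was 1 list.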

How the results depend on the processing

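The direction of the gained and lost counts rested on the wild-type list used. No paired analysis was possible because each genotype had 1 pooled list, and for the same reason leaving out a replicate could not be run. Settings that moved a count by more than 1.5 times are given here, with the promoter counts under that setting. A window of 250 bp, no width limit, the peak at the start itself and the best peak by fold moved 0 counts. The settings with gene ends and with ranks by fold or over all regions were added after seeing the data.

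With equal numbers of peaks (84080 in each list), gained and lost counts became 279 gained with Runx1-het, 362 lost with NUP98-HOXD13, and 219 gained and 754 lost with Flt3-ITD in set 2. The regions that followed a mutation became 30 with Runx1-het only, 71 without NUP98-HOXD13 only, 35 with and 64 without Flt3-ITD only in set 2, and 4 with and 9 without Flt3-ITD in all 8 lists. At a −log10 q of at least 5, 45 were gained with Flt3-ITD in set 2, 4 were present with it only in set 2, and 0 in all 4 Flt3-ITD lists only. With gene ends included, 72 were present without NUP98-HOXD13 only, 18 with Flt3-ITD only in set 2, and 2 in all 4 Flt3-ITD lists only.

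Against the other set's wild type, gained and lost counts were 250 and 587 with Flt3-ITD/Runx1-het, 209 and 474 with Flt3-ITD in set 1, 257 and 383 with Runx1-het, 461 and 342 with NUP98-HOXD13/Flt3-ITD, and 432 and 355 with NUP98-HOXD13. Flt3-ITD in set 2 had 214 gained. With a window of 1000 bp, gained counts were 642 with Flt3-ITD/Runx1-het, 649 with Flt3-ITD in set 1, 762 with Runx1-het (319 lost), 408 with NUP98-HOXD13/Flt3-ITD (819 lost), 369 with NUP98-HOXD13 (840 lost) and 138 with Flt3-ITD in set 2. The regions that followed a mutation were then 100 with and 109 without Flt3-ITD in set 1, 105 with and 64 without Runx1-het, 123 with NUP98-HOXD13, 18 with and 208 without Flt3-ITD in set 2, and 2 in all 4 Flt3-ITD lists only. Without the set-2 Flt3-ITD list, 310 were absent with NUP98-HOXD13, 144 were present and 229 absent with Flt3-ITD in set 2, and 4 were in all Flt3-ITD lists only.

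With ranks by fold, the promoters over 10 points higher and lower were 201 and 134 with Flt3-ITD in set 1, 93 and 110 with Runx1-het, and 100 and 154 with Flt3-ITD in set 2, and 233 were lower with NUP98-HOXD13. With ranks over all regions, 126 were lower with Flt3-ITD in set 1, 83 were higher with Runx1-het, and 898 were higher and 199 lower with NUP98-HOXD13, so the balance turned there. The cause was not tested. Depth was unknown, and the set-2 Flt3-ITD list, with the fewest regions, limits what a missing peak shows in it.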

Other observations

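The remaining gene lists are given as counts of genes with a promoter region among those with a listed start. Mitochondrial ribosomal protein genes had a region at 65 of 68, with 61 in all 8 lists, and housekeeping genes at 12 of 12, with 12 in all 8. Of 17 stem cell genes, 16 had a region and 13 had it in all 8 lists. Lymphoid priming genes had one at 17 of 21, with 12 in all 8 lists, and dendritic cell genes at 10 of 14, with 7. Erythroid and megakaryocyte genes had one at 7 of 13, with 5 in all 8 lists. Of 13 mast cell, basophil and eosinophil genes, 9 had a region, and 2 had it in all 8 lists, so most of these varied between lists. Of 12 MHC class I genes, 12 had a region and 11 had it in all 8 lists. Among genes of other tissues, neuronal genes had a region at 8 of 10, with 6 in all 8 lists, protocadherins at 7 of 8, with 6, and stroma and endothelium genes at 8 of 9, with 3. Solute carriers had one at 175 of 247, with 141 in all 8 lists, and vomeronasal receptors at 1 of 320.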
